A study of Mus musculus with 8 samples.

Results

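The cytochrome P450 genes of the mouse kidney were described here. They were taken as all genes of the deposited table that are annotated as protein-coding and whose symbol is Cyp followed by a digit, without Cyp24a1 and Cyp27b1. The rule used no measured value, and it found 98 genes of 55919, in 16 families and 37 subfamilies. Cytochrome P450 enzymes hold a heme group and use oxygen, with electrons passed on by P450 reductase or, in mitochondria, by ferredoxin, to oxidize fatty acids, steroids, vitamins and foreign compounds. In the kidney many of them lie in the proximal tubule. There the Cyp4a enzymes hydroxylate the end of fatty acid chains and the Cyp2j and Cyp2c enzymes form epoxides of arachidonic acid, which act on vessels and on salt transport.

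The study sequenced poly(A) RNA from whole kidneys of female C57BL/6 x 129S4/SvJae mice, with 8 libraries that make 4 groups of 2. WT-NI and KO-NI were kidneys without injury from wildtype and Tet1 KO mice, while the groups called WT-I/R 3D and, in the mutant, KO-I/R 3D were kidneys taken 3 days after the left renal pedicle had been clamped for 45 min, which starves the kidney of blood until the clamp is opened. Each library was made from the pooled RNA of 3 mice, so the spread behind each p-value is that of pools. The KO mice carry the germline allele Tet1 tm1.1Jae in every cell, not only in the tubule, and none of the sources used here gives the age of the sequenced mice. Whether a kidney without injury and an injured kidney could stem from 1 animal is not stated either.

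The values are FPKM, which is reads relative to gene length and to library size, scaled between libraries by the authors. The libraries held 13961281 to 18480858 reads. Tet1 was listed at 0.378 and 0.323 FPKM in WT-NI, 0.551 and 0.382 in KO-NI, 0.243 and 0.313 in WT-I/R 3D, and 0.189 and 0.158 in KO-I/R 3D. The KO-NI pools were thus not below the WT-NI pools, while the paper reports hardly any Tet1 mRNA in KO kidneys. The listed value is of the whole gene and does not check the deleted part. The first KO-NI library stood apart, with 10.9% of its reads from mitochondrial genes against 4.76% to 7.70% in the others. For each of 15650 genes, log2(FPKM + 0.1) was compared between groups with limma, and a gene was called at an adjusted p under 0.05 with an absolute log2 fold change over 0.5. In these bulk samples fewer cells of a type and less RNA per cell cannot be told apart.

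Of the 98 genes, 40 in 21 subfamilies reached 1 FPKM in at least 2 libraries and were tested. Another 32 were above 0 in some library but did not pass. The highest of them was Cyp2b9, at 1.24 FPKM, and none had more than 38 reads in a library. The remaining 26 were listed at 0 in all libraries. A mean above 10 FPKM was reached by 20 genes and a mean above 100 FPKM by 5. Expression was concentrated in few genes, and in WT-NI the 8 highest genes held 79.3% of the summed P450 FPKM.

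Several P450 groups known from other organs were near 0. None of the 9 Cyp3a genes, which oxidize many drugs, and none of the 5 Cyp2b genes passed, and of 15 Cyp2c genes only Cyp2c23 did. Cyp7a1, the first enzyme of bile acid synthesis in the liver, and Cyp19a1, the aromatase that makes estrogens, were listed at 0. Of the adrenal steroid enzymes, Cyp11b1, Cyp11b2 and Cyp21a1 were listed at 0, Cyp11a1 had at most 4 reads and Cyp17a1 at most 8 reads in a library. The adrenal markers Th and Pnmt were also listed at 0 in every library, and the summed level of 8 adrenal markers was 1.69 to 4.09 FPKM. The libraries thus held little adrenal RNA by these markers.

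Promoters are shown first for Cyp2a4 and Cyp2a5, which fell after injury, for Cyp2d26, which also fell, and for Cyp1b1, which rose. The RefSeq table (GRCm38.p6) held a promoter window of 300 bases, mostly upstream of the start site, for 27 of the 40 tested genes. Each run is written 5′ to 3′ on the strand of the gene, and capitals mark matches on either strand to any of 3 motifs. The first motif is TATAAA, the box where transcription of many tissue genes is set up. Another is GTTAAT, which forms part of the binding site of the tubule and liver factor HNF1. The last is CAAAGTCC, which forms the core of a site that HNF4 proteins bind.
Cyp2a4, chr7:26306942-26307241 (plus strand): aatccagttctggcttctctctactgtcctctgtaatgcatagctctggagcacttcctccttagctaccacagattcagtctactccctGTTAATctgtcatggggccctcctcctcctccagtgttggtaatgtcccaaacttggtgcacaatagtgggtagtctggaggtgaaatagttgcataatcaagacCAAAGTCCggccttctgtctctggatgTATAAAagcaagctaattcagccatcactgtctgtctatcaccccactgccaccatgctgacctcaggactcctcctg
Cyp2a5, chr7:26835089-26835388 (plus strand): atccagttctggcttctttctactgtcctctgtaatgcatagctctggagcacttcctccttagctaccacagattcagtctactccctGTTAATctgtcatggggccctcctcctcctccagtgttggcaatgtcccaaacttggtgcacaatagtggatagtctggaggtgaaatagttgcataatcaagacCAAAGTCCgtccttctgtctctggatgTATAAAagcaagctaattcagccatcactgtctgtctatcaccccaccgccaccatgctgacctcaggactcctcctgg
Cyp2d26, chr15:82794196-82794495 (minus strand): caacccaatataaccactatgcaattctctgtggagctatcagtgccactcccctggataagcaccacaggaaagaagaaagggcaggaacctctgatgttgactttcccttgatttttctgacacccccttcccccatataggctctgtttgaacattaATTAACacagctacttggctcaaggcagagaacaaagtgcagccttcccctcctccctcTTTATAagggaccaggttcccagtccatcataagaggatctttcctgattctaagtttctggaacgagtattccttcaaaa
Cyp1b1, chr17:79715012-79715311 (minus strand): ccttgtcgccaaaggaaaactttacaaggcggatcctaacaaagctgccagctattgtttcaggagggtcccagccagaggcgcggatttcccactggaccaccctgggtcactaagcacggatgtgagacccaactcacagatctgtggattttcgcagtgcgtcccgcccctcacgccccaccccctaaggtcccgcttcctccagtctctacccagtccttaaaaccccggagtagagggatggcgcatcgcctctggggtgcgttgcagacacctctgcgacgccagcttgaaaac

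The motifs were chosen with the sequences in view, and a match is a description, not a site. TATAAA was found in 13.6% of all 32851 promoters of this length, GTTAAT in 7.10% and CAAAGTCC in 1.42%. Of the 27 promoters of tested P450 genes, 9 held TATAAA, 5 held GTTAAT and 3 held CAAAGTCC. Cyp2a4 and Cyp2a5 held all of them, at nearly the same places, and their windows matched at 294 bases with 5 mismatches and 2 gaps. Cyp2d26 held TATAAA and GTTAAT on the other strand. Cyp1b1 held none of these, and its window had 16 CG pairs against 1 to 2 in the other promoters shown. The remaining P450 promoter with CAAAGTCC was that of Cyp4f18, a gene that rose after injury in both genotypes. The core bound by the aryl hydrocarbon receptor, TNGCGTG, was in 5.07% of all promoters and in none of the 27.

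Several members are close copies, which matters for how reads are shared between them. Of windows of 100 bases, 36.2% of the Cyp4a12b transcript and 35.8% of the Cyp4a12a transcript also occur in another gene of the GENCODE annotation, namely each other. The share was 20.1% for Cyp4a32, 14.4% for Cyp2a5, 12.7% for Cyp4a10 and 11.2% for Cyp2a4, and it was 0 for 22 of the 40 genes. The split of reads within these pairs is therefore uncertain, since no source used here names the counting program. The coding stretch around the codon of the heme-binding cysteine (in capitals) shows how alike the Cyp4a genes are.
Cyp4a10: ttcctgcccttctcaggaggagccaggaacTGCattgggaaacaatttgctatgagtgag
Cyp4a31: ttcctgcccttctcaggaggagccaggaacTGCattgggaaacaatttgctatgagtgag
Cyp4a32: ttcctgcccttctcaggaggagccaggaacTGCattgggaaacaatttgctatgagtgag
Cyp4a14: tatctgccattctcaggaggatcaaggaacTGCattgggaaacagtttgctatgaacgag
Cyp4a12a: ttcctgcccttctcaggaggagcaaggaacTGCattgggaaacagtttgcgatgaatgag
Cyp4a12b: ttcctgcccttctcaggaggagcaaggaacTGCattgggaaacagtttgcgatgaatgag

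Over these 60 bases Cyp4a31 and Cyp4a32 did not differ from Cyp4a10. Cyp4a14 differed from Cyp4a10 at 8 bases and the Cyp4a12 genes at 4. Over the whole coding sequence Cyp4a12a and Cyp4a12b were 98.5% identical, Cyp4a10 and Cyp4a32 97.2%, and Cyp4a10 and Cyp4a12a 80.1%. All 6 genes lie on chromosome 4 in 1 cluster.

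Summed over all members, P450 transcripts were lower in each injured library than in any library without injury. The sums were 1938 and 1978 FPKM in WT-NI, 2514 and 2054 in KO-NI, 1182 and 1087 in WT-I/R 3D, and 963 and 798 in KO-I/R 3D. No 2 of the 4 groups overlapped, with KO-NI the highest and KO-I/R 3D the lowest. As a share of all FPKM these were 0.495% to 0.568% without injury, 0.320% to 0.333% in WT-I/R 3D and 0.255% to 0.300% in KO-I/R 3D. No test was made on the sums.

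**Figure D1:**
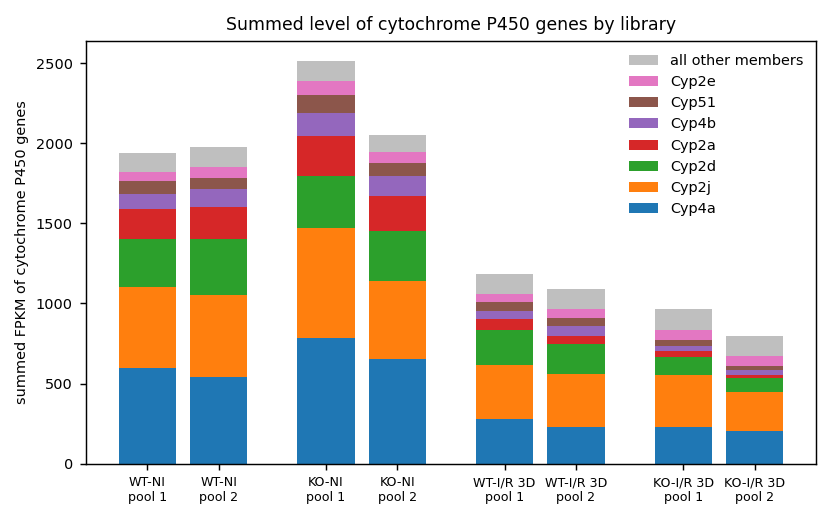
Summed FPKM of the cytochrome P450 genes (vertical axis) in each of the 8 libraries, stacked by subfamily. The sums go from 1938 to 2514 FPKM without injury to 798 to 1182 FPKM after injury, and the Cyp4a, Cyp2j, Cyp2d and Cyp2a shares make up most of each bar.

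By subfamily, Cyp4a genes together gave 594 and 543 FPKM in WT-NI, 785 and 653 in KO-NI, 278 and 230 in WT-I/R 3D, and 227 and 207 in KO-I/R 3D. Cyp2j genes gave 511 and 511, 684 and 487, 341 and 330, and 325 and 238 FPKM in the same order. Cyp2d genes gave 299 and 345, 326 and 315, 216 and 189, and 117 and 92.7 FPKM. All 3 sums were lower in each injured library than in any other, and lower in both KO-I/R 3D pools than in both WT-I/R 3D pools. Cyp2a genes showed the same order, at 185 and 202, 247 and 218, 68.4 and 50.3, and 34.2 and 18.2 FPKM. Cyp4f genes did not follow this order and summed to 24.5 to 26.6 FPKM without injury and 28.4 to 33.3 FPKM after it.

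**Figure D2:**
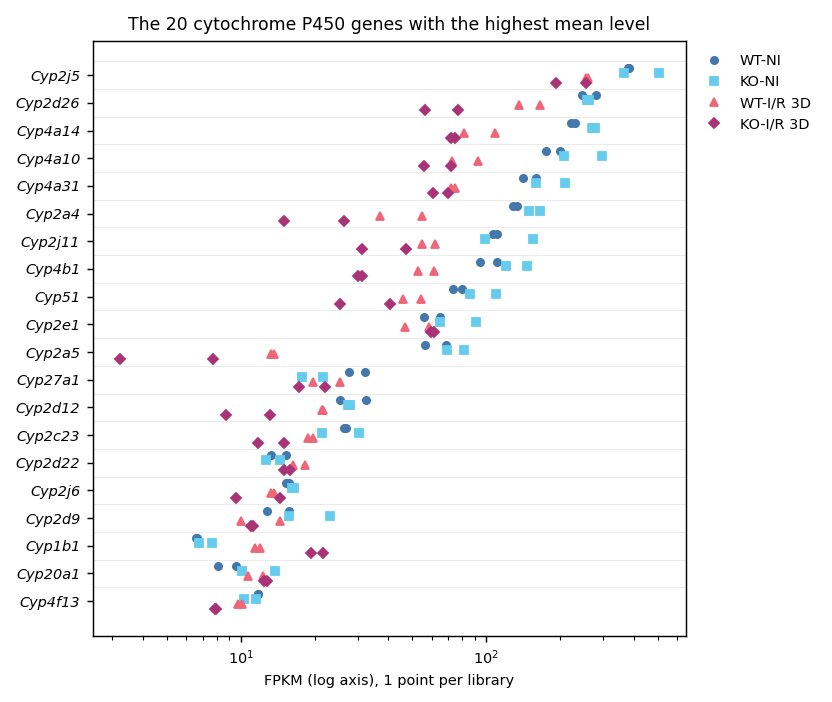
FPKM on a log axis of the 20 cytochrome P450 genes with the highest mean, 1 point per library, with the 4 groups by colour and shape. Most genes sit lower in the 4 injured libraries, Cyp2a5 reaching 3.22 FPKM, while Cyp1b1 sits higher, at 19.3 and 21.6 FPKM in KO-I/R 3D.

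The first comparison asked how P450 genes responded to injury in WT kidneys. Of 40 genes tested, 9 fell (22.5%, against 8.45% of all genes tested) and 4 rose (10%, against 8.9% of all genes). The genes that fell belong to the Cyp2a, Cyp4a, Cyp4b, Cyp4f and Cyp2d subfamilies, and those that rose were Cyp4f18, Cyp4a12b, Cyp4f16 and Cyp1b1. The pools did not overlap for 19 genes lower (47.5%, against 37.6% of all genes) and 11 higher (27.5%, against 34.5%). The median log2 fold change of the 40 genes was -0.22, beside -0.01 over all genes, and was -0.11 without WT-I/R 3D replicate 1, -0.35 without WT-I/R 3D replicate 2 and 0.003 with no filter on low values. These counts rested on every WT pool and dropped when any of them was left out. The calls over all genes dropped as well, so the loss was not particular to P450 genes.

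The second asked the same in Tet1 KO kidneys. There 17 genes fell (42.5%, against 19.4% of all genes) and 9 rose (22.5%, against 17.9%), with a median of -0.41 beside -0.01 over all genes, which was -0.26 without KO-NI replicate 1 and -0.19 with no filter. The pools did not overlap for 21 genes lower (52.5%, against 34.9% of all genes) and 12 higher (30%, against 32.5%). All 9 genes that fell and all 4 that rose in WT kidneys did so in KO kidneys. The WT comparison and the KO comparison share no library, but both use the same spread of each gene, estimated from all 8 libraries. Their calls are therefore not independent. The first KO-NI library, which stood apart, did not carry the counts of called genes, which changed little without it. Without KO-I/R 3D replicate 2 fewer P450 genes were called, and fewer over all genes as well. When FPKM were turned into TPM, the median of all genes was 0.17 in the WT comparison and 0.38 in the KO comparison, the median of the P450 genes was -0.041 and -0.0051, and 8 and 14 P450 genes fell and 5 and 11 rose. Over all genes TPM gave 1811 higher and 717 lower calls in WT kidneys (1393 and 1322 with FPKM) and 5076 and 1580 in KO kidneys (2808 and 3043 with FPKM).

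**Figure D3:**
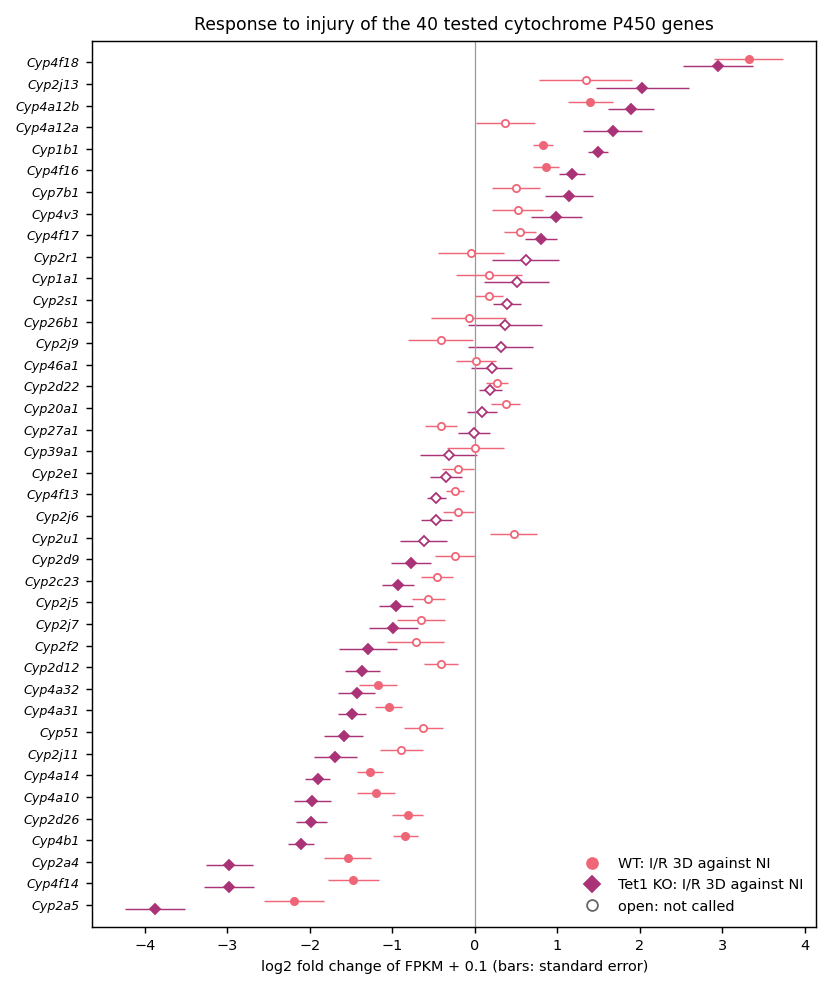
Log2 fold change of FPKM + 0.1 (horizontal axis, bars show the standard error) after injury in WT (circles) and Tet1 KO (diamonds) kidneys for the 40 tested genes, with filled symbols for called genes. The KO change reaches -3.88 for Cyp2a5 at the bottom, and the WT change reaches 3.32 for Cyp4f18 at the top.

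Cyp2a5 had the largest fall of the tested P450 genes in both genotypes. The enzyme, which hydroxylates coumarin and nicotine, was at 56.4 and 68.6 FPKM in WT-NI, 81.1 and 69.2 in KO-NI, 13.7 and 13.3 in WT-I/R 3D, and 7.74 and 3.22 in KO-I/R 3D. The injured pools lay far below the others in both genotypes, and both KO-I/R 3D pools lay below both WT-I/R 3D pools. It fell by 2.20 on the log2 scale in WT kidneys (standard error 0.36, limma adjusted p = 0.0107) and fell by 3.88 in KO kidneys (standard error 0.36, adjusted p = 0.000625). Cyp2a4, a steroid hydroxylase that in mouse liver is higher in females, was at 129 and 133 FPKM in WT-NI, 166 and 149 in KO-NI, 54.6 and 37.0 in WT-I/R 3D, and 26.5 and 15.0 in KO-I/R 3D. The order of the groups was that of Cyp2a5. It fell by 1.54 in WT kidneys (standard error 0.29, adjusted p = 0.0152) and fell by 2.97 in KO kidneys (standard error 0.29, adjusted p = 0.000679).

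Of the Cyp4a genes, the 3 abundant ones fell. Cyp4a14, a fatty acid hydroxylase induced through PPAR alpha, was at 231 and 222 FPKM in WT-NI, 271 and 278 in KO-NI, 109 and 81.1 in WT-I/R 3D, and 71.8 and 74.5 in KO-I/R 3D. The injured groups lay well below the others, with WT-I/R 3D above KO-I/R 3D. The log2 fold change was -1.27 in WT kidneys (standard error 0.16, adjusted p = 0.0052) and -1.91 in KO kidneys (standard error 0.16, adjusted p = 0.000463). Cyp4a10, another fatty acid hydroxylase, was at 200.5 and 176 FPKM in WT-NI, 298 and 209 in KO-NI, 92.4 and 72.7 in WT-I/R 3D, and 72.2 and 55.9 in KO-I/R 3D. It fell by 1.20 in WT kidneys (standard error 0.23, adjusted p = 0.0155) and fell by 1.97 in KO kidneys (standard error 0.23, adjusted p = 0.00106). Cyp4a31 (160.3 and 142, 211 and 160, 74.4 and 71.7, and 69.8 and 61.1 FPKM in the 4 groups) and the weakly expressed Cyp4a32 (0.657 to 2.08 FPKM) fell in both genotypes as well, with log2 fold changes of -1.49 to -1.04.

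The Cyp4a12 genes went the other way. Cyp4a12a, which makes hydroxyeicosatetraenoic acid and is known as a male enzyme of mouse kidney that androgens induce, was at 0.373 and 0.678 FPKM in WT-NI, 1.39 and 2.59 in KO-NI, 0.633 and 0.740 in WT-I/R 3D, and 5.87 and 6.68 in KO-I/R 3D. In reads these were 13 and 23, 38 and 86, 27 and 33, and 248 and 337. Both KO-I/R 3D pools stood above every other pool, and both KO-NI pools stood above all WT pools. After injury it rose by 1.67 in KO kidneys (standard error 0.36, adjusted p = 0.0107), a call lost without KO-I/R 3D replicate 2, and was not called in WT kidneys (log2 fold change 0.37, standard error 0.36, adjusted p = 0.515). The difference between the responses was 1.30 (standard error 0.51, adjusted p = 0.466) and did not pass.

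Cyp4a12b, nearly identical to it, was at 0.726 and 0.745 FPKM in WT-NI, 2.11 and 1.55 in KO-NI, 1.61 and 2.74 in WT-I/R 3D, and 6.54 and 7.46 in KO-I/R 3D. It rose in both genotypes, by 1.40 in WT kidneys (standard error 0.28, adjusted p = 0.0177) and by 1.89 in KO kidneys (standard error 0.28, adjusted p = 0.0024). As the pair shares 35.8% to 36.2% of its windows, the division between a and b is uncertain, and the sum of both was higher in each KO-I/R 3D pool than in any other. Because the enzyme is known as male, the labelled sex was checked after these values were seen. The Y-linked genes Ddx3y, Eif2s3y, Kdm5d and Uty were listed at 0 in all 8 libraries and Xist was at 36.0 to 57.1 FPKM, which matches the label female.

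**Figure D4:**
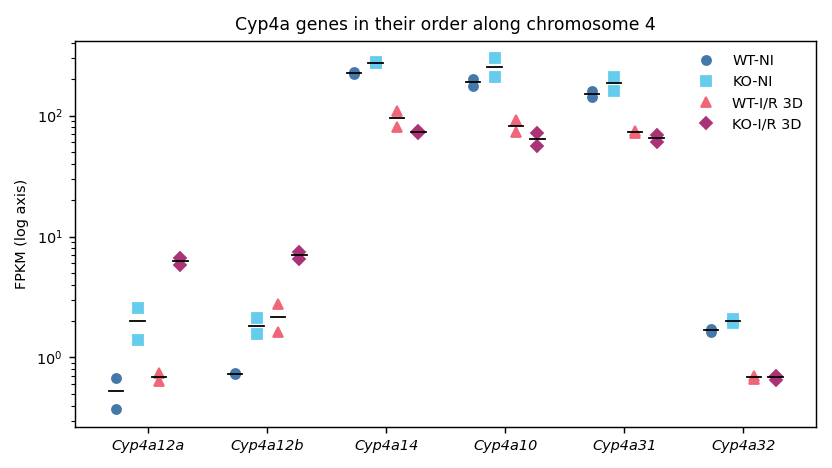
FPKM on a log axis of the 6 tested Cyp4a genes, ordered by position on chromosome 4, with 1 point per library and a line at each group mean. Cyp4a14, Cyp4a10, Cyp4a31 and Cyp4a32 are lower in the injured groups, while Cyp4a12a and Cyp4a12b are highest in KO-I/R 3D, at 5.87 to 7.46 FPKM.

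Of the 4 tested Cyp2d genes, 1 fell in WT kidneys and 3 in KO kidneys, beside 8.45% and 19.4% of all genes. None of the 4 passed the test of the difference between the responses. Cyp2d26, the most abundant, was at 247 and 281 FPKM in WT-NI, 263 and 257 in KO-NI, 165 and 136 in WT-I/R 3D, and 77.1 and 56.2 in KO-I/R 3D. The 2 groups without injury overlapped, and the injured groups lay apart from them and from each other. It fell by 0.81 in WT kidneys (standard error 0.19, adjusted p = 0.0276) and fell by 1.98 in KO kidneys (standard error 0.19, adjusted p = 0.000626). Counting the main fit, the WT call held in 14 of 20 settings and the KO call in all 20. Cyp2d12 was at 25.3 and 32.4, 27.5 and 27.8, 21.4 and 21.7, and 13.1 and 8.73 FPKM, and fell in KO kidneys (log2 fold change -1.36, standard error 0.21, adjusted p = 0.0029). Cyp2d9, a testosterone hydroxylase of male mouse liver, fell there (log2 fold change -0.78, standard error 0.24, adjusted p = 0.0407), a call that 11 alternatives removed. Cyp2d22, at 12.7 to 18.3 FPKM, was not called in either genotype.

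The Cyp2j genes, arachidonic acid epoxygenases, were led by Cyp2j5, the most abundant P450 of these kidneys. It was at 381 and 378 FPKM in WT-NI, 508 and 365 in KO-NI, 259 and 255 in WT-I/R 3D, and 256 and 192 in KO-I/R 3D. All injured pools lay below all others. Only the KO change was called (log2 fold change -0.96, standard error 0.21, adjusted p = 0.0105), and the WT change was -0.56 (standard error 0.21, adjusted p = 0.104). Cyp2j11, at 107 and 111, 156 and 98.9, 62.2 and 55.0, and 47.0 and 31.3 FPKM, fell in KO kidneys (log2 fold change -1.69, standard error 0.26, adjusted p = 0.00302). Cyp2j13, which is weakly expressed, rose there from 0.340 and 0.124 FPKM to 1.68 and 0.830 FPKM, or 18 and 8 reads to 137 and 81 reads (log2 fold change 2.03, standard error 0.57, adjusted p = 0.0276). In WT kidneys it went from 0.297 and 0.335 FPKM to 0.727 and 1.24 FPKM. That change of 1.34 was not called (standard error 0.57, limma adjusted p = 0.148). Cyp2j6 and Cyp2j9 were not called, and Cyp2j7 fell from 1.29 and 1.73 FPKM to 0.681 and 0.729 FPKM in KO kidneys, a call that 10 alternatives removed. The WT change of Cyp2j7 was -0.66 and was not called (standard error 0.29, limma adjusted p = 0.165).

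Among the other abundant genes, Cyp4b1, an oxidase of fatty acids and furans, was at 94.2 and 111 FPKM in WT-NI, 147 and 121 in KO-NI, 52.7 and 61.5 in WT-I/R 3D, and 31.3 and 30.2 in KO-I/R 3D. The log2 fold change was -0.84 in WT kidneys (standard error 0.15, adjusted p = 0.0142) and -2.11 in KO kidneys (standard error 0.15, adjusted p = 0.00041). Cyp51, the demethylase of lanosterol in cholesterol synthesis, was at 80.0 and 73.4, 109 and 85.7, 54.1 and 45.7, and 40.5 and 25.4 FPKM. It fell in KO kidneys (log2 fold change -1.59, standard error 0.24, adjusted p = 0.00269), and the WT change of -0.62 was not called (standard error 0.24, adjusted p = 0.118). Cyp2c23, the epoxygenase of the Cyp2c family in mouse kidney, was at 26.3 and 26.9, 30.3 and 21.4, 19.8 and 18.9, and 15.0 and 11.8 FPKM and fell in KO kidneys (log2 fold change -0.93, standard error 0.19, adjusted p = 0.00897). Cyp2e1, which oxidizes ethanol and acetone, stayed between 46.8 and 90.8 FPKM and Cyp27a1, the mitochondrial sterol hydroxylase, between 17.3 and 32.0 FPKM, and neither was called after injury.

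Cyp4f genes moved in both directions. Cyp4f14, which hydroxylates leukotrienes and vitamin E, was at 3.42 and 4.81 FPKM in WT-NI, 5.97 and 3.43 in KO-NI, 1.48 and 1.32 in WT-I/R 3D, and 0.427 and 0.556 in KO-I/R 3D. It fell by 1.47 in WT kidneys (standard error 0.31, adjusted p = 0.0211) and fell by 2.98 in KO kidneys (standard error 0.31, adjusted p = 0.000782). Cyp4f18, a leukotriene hydroxylase of mouse leukocytes, was at 0.450 and 0.154, 0.765 and 0.393, 3.71 and 3.54, and 4.61 and 5.26 FPKM, from 4 to 16 reads without injury to 121 to 203 reads after it. It had the largest rise of the tested P450 genes in both genotypes, by 3.32 (standard error 0.42, adjusted p = 0.00566) and 2.94 (standard error 0.42, adjusted p = 0.0023). Macrophage markers moved with it: 7 of 7 rose in WT kidneys and 6 of 7 (85.7%) in KO kidneys, against 8.9% and 17.9% of all genes, and their summed level went from 70.4 to 102 FPKM without injury to 557 to 973 FPKM after it. Their part in the Cyp4f18 change was not tested. Cyp4f13 was at 11.8 and 11.8, 10.3 and 11.6, 10.1 and 9.77, and 7.90 and 7.87 FPKM, and its KO change of -0.47 (standard error 0.11, adjusted p = 0.0161) stayed under the fold threshold. Cyp4f16 rose in both genotypes, by 0.86 and 1.17, and Cyp4f17 in KO kidneys, by 0.80. The WT change of Cyp4f17 was 0.55 and was not called (standard error 0.19, limma adjusted p = 0.0944).

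Cyp1b1, which oxidizes estradiol and polycyclic hydrocarbons and is a target of the aryl hydrocarbon receptor, was higher in each injured pool than in any other. It was at 6.55 and 6.61 FPKM in WT-NI, 7.64 and 6.79 in KO-NI, 12.0 and 11.4 in WT-I/R 3D, and 19.3 and 21.6 in KO-I/R 3D. The pools within a group lay close together, and the injured groups did not overlap. It rose by 0.82 in WT kidneys (standard error 0.12, adjusted p = 0.00828) and by 1.49 in KO kidneys (standard error 0.12, adjusted p = 0.000441). Cyp1a1, a gene that the same receptor induces, was at 0.599 to 1.52 FPKM and was not called. Its KO-I/R 3D pools lay above its KO-NI pools, and its WT pools overlapped. Cyp1a2 was listed at 0. Of 3 other tested targets of the receptor none was called in WT kidneys, where 8.9% of all genes rose and 8.45% fell. In KO kidneys none of the 3 rose, beside 17.9% of all genes. Nqo1 and Ugt1a6a fell there (66.7%, against 19.4% of all genes). Ahrr, a target too low to be tested, had 0 to 3 reads in the libraries without injury and 8 to 14 reads after it. Aldh3a1, also too low, had 0 to 10 reads without injury and 5 to 15 after it. The part of the receptor in the Cyp1b1 change was not tested.

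Most of the remaining genes were weakly expressed. Cyp7b1, an oxysterol hydroxylase, was at 1.57 and 1.55 FPKM in WT-NI, 2.46 and 1.24 in KO-NI, 2.26 and 2.23 in WT-I/R 3D, and 3.97 and 3.99 in KO-I/R 3D, and rose in KO kidneys by 1.14 (standard error 0.29, adjusted p = 0.0199). Cyp4v3, a fatty acid hydroxylase, rose in KO kidneys by 0.99 (standard error 0.31, adjusted p = 0.042), a call that 10 alternatives removed. The WT change of Cyp4v3 was 0.52 and was not called (standard error 0.31, limma adjusted p = 0.291). Cyp2f2, which oxidizes naphthalene in mouse lung, fell in KO kidneys from 1.01 and 1.73 FPKM to 0.510 and 0.451 FPKM, a call that 8 alternatives removed. The WT change of Cyp2f2 was -0.72 and was not called (standard error 0.35, limma adjusted p = 0.199). Cyp2u1 was at 1.39 and 1.46, 2.44 and 1.63, 2.40 and 1.69, and 1.48 and 1.07 FPKM, higher after injury in WT kidneys and lower in KO kidneys, with no call in either and an adjusted p of 0.457 for the difference in limma. Cyp20a1, at 8.12 to 13.8 FPKM, and Cyp2s1, Cyp39a1, Cyp46a1, Cyp26b1 and Cyp2r1 were not called in either genotype.

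None of the P450 genes passed the test of the difference between the 2 injury responses, nor did any other gene (background 0.0% in each direction, smallest adjusted p = 0.39). At an unadjusted p under 0.05, 10 P450 genes had a more negative response in KO kidneys (25%, against 6.42% of all genes) and 2 a more positive one (5%, against 3.6%). The 10 were Cyp2a5, Cyp4f14, Cyp2a4, Cyp4b1, Cyp2d26, Cyp2u1, Cyp51, Cyp2d12, Cyp4a10 and Cyp4a14, and the 2 were Cyp1b1 and Cyp4a12a. Cyp4b1 had the smallest p, with a difference of -1.27 (standard error 0.22, adjusted p = 0.39). Without KO-NI replicate 2 its difference was -1.41, with the first KO-NI pool, which stood apart, as the sole KO-NI pool.

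The third comparison asked how injured KO kidneys differed from injured WT kidneys. It uses the same injured libraries as the first 2, so it is no separate evidence. No P450 gene passed with limma, and no gene of the table did (background 0.0% in each direction, smallest adjusted p = 0.0862). At an unadjusted p under 0.05, 10 P450 genes were lower in KO-I/R 3D (25%, against 11.3% of all genes) and 4 higher (10%, against 5.61%). The pools did not overlap for 18 genes lower (45%, against 29.5% of all genes) and 9 genes higher (22.5%, against 28.0%). The median was -0.18, beside -0.0025 over all genes, and was -0.066 without KO-I/R 3D replicate 2 and -0.043 with TPM, where the median of all genes was 0.13.

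The lower genes were led by Cyp2a5 (log2 fold change -1.41, standard error 0.36), Cyp4f14 (-1.35, standard error 0.31), Cyp2d26 (-1.19, standard error 0.19), Cyp2a4 (-1.17, standard error 0.29), Cyp2d12 (-1.003, standard error 0.21) and Cyp4b1 (-0.89, standard error 0.15). Their adjusted p values were 0.0862 to 0.138. The higher genes were Cyp4a12a (3.02, standard error 0.36), Cyp4a12b (1.68, standard error 0.28), Cyp7b1 (0.80, standard error 0.29) and Cyp1b1 (0.80, standard error 0.12), at adjusted p of 0.0862 to 0.239. With limma voom on the reads recovered from the FPKM, 5 genes were called lower (Cyp2a5, Cyp2d26, Cyp2a4, Cyp2d12 and Cyp4b1) and 3 higher (Cyp4a12a, Cyp4a12b and Cyp1b1), at adjusted p of 0.0182 to 0.0462, beside 298 lower and 86 higher over all genes. With limma on FPKM, 3 lower and 4 higher were called when either KO-NI library was left out, beside 546 to 551 lower and 109 to 111 higher over all genes. Without KO-I/R 3D replicate 1, Cyp2a5 was the only P450 gene called, of 15 genes called lower. The abundant Cyp4a10, Cyp4a14, Cyp4a31 and Cyp2j5 differed less between the injured groups, with log2 fold changes of -0.37 to -0.16 and adjusted p of 0.307 to 0.664.

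**Figure D5:**
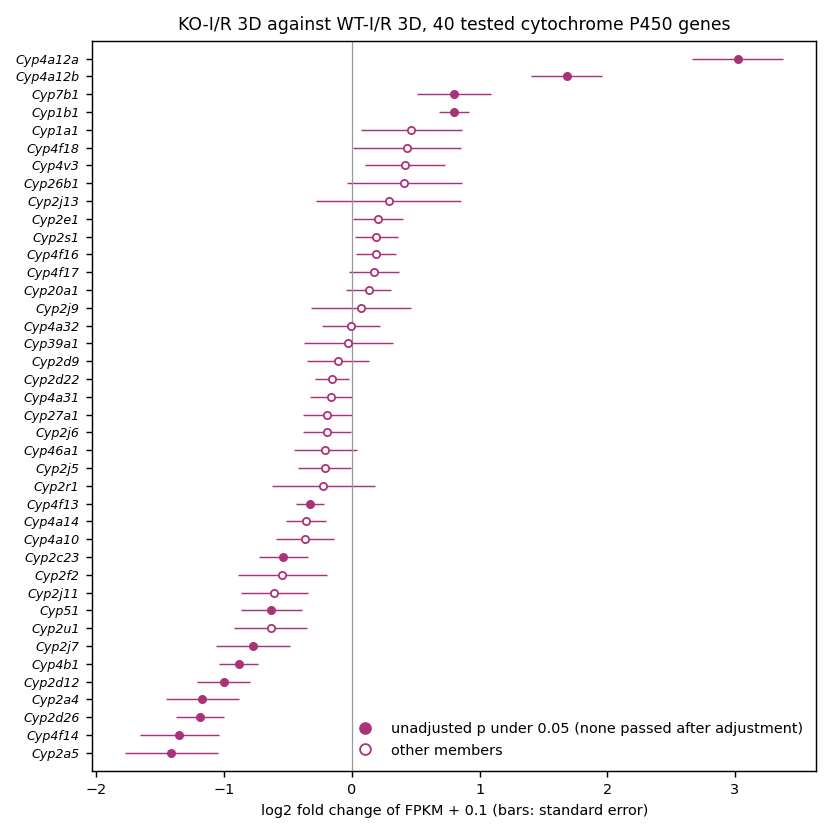
Log2 fold change of FPKM + 0.1 (horizontal axis, bars show the standard error) of injured KO against injured WT kidneys for the 40 tested genes, filled where the unadjusted p is under 0.05. Cyp4a12a stands at 3.02 and Cyp4a12b at 1.68, and 10 filled genes lie below 0, down to -1.41 for Cyp2a5.

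Without injury, no P450 gene passed in KO-NI against WT-NI, nor did any other gene (background 0.0% in each direction, smallest adjusted p of a P450 gene 0.688), and limma voom called 0 higher and 1 lower over all genes. At an unadjusted p under 0.05, 4 P450 genes were higher (10%, against 2.24% of all genes) and 1 lower (2.5%, against 3.35%). The higher ones were Cyp4a12a (log2 fold change 1.72, standard error 0.36), Cyp4a12b (1.19, standard error 0.28), Cyp20a1 (0.42, standard error 0.18) and Cyp4b1 (0.38, standard error 0.15), and the lower one was Cyp27a1 (-0.60, standard error 0.19). The pools did not overlap for 13 genes higher (32.5%, against 17.7% of all genes) and 6 lower (15%, against 17.2%). With the first KO-NI pool, which stood apart, as the sole KO-NI pool, Cyp4a12b, Cyp39a1, Cyp20a1 and Cyp7b1 were called higher, beside 776 higher and 1444 lower calls over all 15510 genes tested. Without that pool none was called.

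Genes that P450 enzymes depend on were read next, against 8.45% of all genes called lower and 8.9% higher in WT kidneys, and 19.4% and 17.9% in KO kidneys. Por, the reductase that feeds electrons to the microsomal enzymes, was at 135 and 126 FPKM in WT-NI, 116 and 153 in KO-NI, 54.7 and 58.0 in WT-I/R 3D, and 33.9 and 28.5 in KO-I/R 3D. It fell by 1.21 in WT kidneys (standard error 0.16, adjusted p = 0.00658) and fell by 2.09 in KO kidneys (standard error 0.16, adjusted p = 0.000426). Of 8 tested electron donor genes, 2 fell in WT kidneys (25%) and 5 in KO kidneys (62.5%), and none rose. Of 12 genes of heme synthesis and breakdown, 3 fell (25%) and 1 rose (8.33%) in WT kidneys, and 4 fell (33.3%) and 2 rose (16.7%) in KO kidneys, with medians of -0.10 and -0.26. Alas1, the first enzyme of heme synthesis, fell (log2 fold changes -0.83 and -1.52), and Hmox1, which breaks heme down, rose by 1.77 and 2.15 on the log2 scale.

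Of 24 tested regulators of P450 genes, 3 fell (12.5%) and none rose in WT kidneys, and 8 fell (33.3%) and 1 rose (4.17%) in KO kidneys, to be read against the same shares over all genes. Ppara, the receptor that drives Cyp4a10 and Cyp4a14, was at 26.2 and 25.8 FPKM in WT-NI, 32.9 and 25.9 in KO-NI, 5.53 and 5.46 in WT-I/R 3D, and 4.34 and 3.47 in KO-I/R 3D. The log2 fold change was -2.22 in WT kidneys (standard error 0.16, adjusted p = 0.0019) and -2.88 in KO kidneys (standard error 0.16, adjusted p = 0.000332). Hnf4a, a factor of proximal tubule and liver, fell too (-0.87 and -1.18). Of 11 other PPAR alpha targets 8 fell in WT kidneys (72.7%) and 9 in KO kidneys (81.8%). Of 11 other sterol synthesis genes 2 fell in WT kidneys (18.2%) and 6 in KO kidneys (54.5%). Ephx2, the hydrolase that opens the epoxides made by Cyp2j and Cyp2c enzymes, fell in both genotypes (-0.74 and -1.23). Of 7 other tested genes of the retinoic acid pathway, 1 rose and 1 fell in WT kidneys (14.3% each). In KO kidneys 2 rose and 2 fell (28.6% each), with medians of -0.12 in WT and -0.61 in KO kidneys. Aldh1a2, which makes retinoic acid, rose by 2.22 and 3.22, while Cyp26b1, which breaks it down, was not called.

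Markers of the proximal tubule, where most of these enzymes lie, moved with the falling P450 genes. Of 14 markers, 11 fell (78.6%) and Slc7a13 rose in WT kidneys, and 13 fell (92.9%) and Slc7a13 rose in KO kidneys. Their summed level was 5501 to 5604 FPKM in WT-NI, 4856 to 5360 in KO-NI, 2594 to 3127 in WT-I/R 3D and 1198 to 1759 in KO-I/R 3D. None of the 14 was at 0. Of 8 markers of other tubule segments 3 fell in WT kidneys (37.5%) and 6 in KO kidneys (75%). The part of these markers in the P450 changes was not tested. Hepatocyte markers summed to 17.1 to 27.4 FPKM over the 8 libraries. Adipocyte markers summed to 1.35 to 1.95 FPKM in WT-NI, 1.16 to 1.31 in KO-NI and 1.86 to 2.36 in WT-I/R 3D. Their sum was highest in KO-I/R 3D, at 4.32 to 6.46 FPKM. The part of fat tissue in the P450 values of these pools was not tested.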

How the data were processed

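Whole kidney RNA was measured in 8 libraries, 2 for each of 4 groups taken from the sample labels. The authors deposited 1 table of FPKM for all genes, with gene names, lengths and positions. HISAT2 2.0.5 and the build GRCm38.p6 (mm10) are listed by the submitters' processing notes, and no source used here names the program that counted the reads. Gene positions in the table look like a later assembly, so only chromosomes and distances were taken from them. FPKM times gene length gave whole reads for 100% of values (tolerance 0.001 reads), 13961281 to 18480858 per library, and the deposited FPKM were already scaled between libraries.

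From the FPKM, log2(FPKM + 0.1) was fitted with limma 3.58.1 in R 4.3.3 (4 group means, variance trend, all 8 libraries, 4 residual and 2.89 prior degrees of freedom) over 15650 genes, which reached 1 FPKM in 2 or more libraries. Benjamini-Hochberg adjustment was over all genes. Fold changes are on this scale and understate the change of low genes. An alternative, limma voom, used the recovered reads of genes with 10 reads or more in 2 or more libraries.

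The members and gene lists were chosen with earlier results of these data known. Genes named are the 20 with the highest means, up to 5 called in each direction per comparison with the largest change, the Cyp4a and Cyp2j genes, Cyp51, adrenal enzymes and, per list, up to 4 called genes (lowest adjusted p first) and up to 2 uncalled ones (highest mean first). Outside this rule, Cyp4f17, Cyp4v3, Cyp7b1, Cyp2f2, Cyp2u1, Cyp2b9, Cyp1a1, Cyp1a2, Cyp7a1, Cyp19a1, Cyp26b1, Cyp46a1, Cyp39a1, Cyp2r1, Cyp2s1, Ahrr, Aldh3a1 and the sex-linked genes were named after their values were seen. Alternatives tried were limma voom, a pseudocount of 1, a stricter filter or none, TPM, scaling by median of ratios, no variance trend, no fold threshold, a fit on the compared libraries alone, a replicate block, and leaving out each library. Library weights were added after seeing the data. The fit was tested on simulated data. Some genes of the lists are not reported here by name. Coding sequences were taken as the longest open reading frame of GENCODE M21 transcripts, and figures were drawn with matplotlib 3.10.9.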

Additional observations from a re-analysis of the deposited data

How the results depend on the processing

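Over the 8 left-out libraries, the counts of called P450 genes ranged from 0 to 4 higher and 0 to 11 lower in WT-I/R 3D against WT-NI, 4 to 9 and 12 to 18 in KO-I/R 3D against KO-NI, 0 to 4 and 0 to 3 between the injured genotypes, 0 to 4 and 0 to 0 in KO-NI against WT-NI, and 0 to 0 and 0 to 1 in the difference of the injury responses. A group left with 1 pool was assumed to vary like the others. With a library left out, the calls over all genes moved as well. KO-I/R 3D against KO-NI had 5 P450 genes called higher with library weights (chosen after seeing the data), beside 1802 over all genes. A fit on the compared libraries alone also called 5, beside 1775 over all genes. The main fit called 9, beside 2808 over all genes. The comparison of injured KO with injured WT kidneys had 3 called higher and 5 lower with limma voom on recovered reads. Over all genes these were 86 and 298. With library weights 3 were higher and 4 lower, beside 90 and 543 over all genes. Under the other settings each count stayed within 1.5 times. The cause of these moves was not tested. In the KO injury comparison TPM turned Cyp2e1 to a log2 fold change of 0.057 and Cyp39a1 to 0.081, and over the left-out libraries Cyp39a1 ranged from -0.88 to 0.25. In KO-NI against WT-NI Cyp39a1 ranged from -0.27 to 0.86 and Cyp7b1 from -0.30 to 0.62. The sign turned without KO-NI replicate 1, where neither gene was called. With the replicate number as a replicate block, 5 P450 genes were higher and 11 lower in the WT injury comparison, beside 1517 and 1483 over all genes. The KO one had 8 and 16, beside 2934 and 3170 over all genes, and the others had 0. Deviations of same-numbered pools correlated at 0.03 to 0.17, which cannot settle whether such pools share animals or a batch. Genes with few reads, such as Cyp4f18 at 4 to 16 reads per library without injury, are limited by depth.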
